A study of Mus musculus with 12 samples.

Results

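The genes described here are 40 that carry out chromosomal DNA replication, supply its deoxynucleotides or copy chromatin and DNA methylation behind the fork, out of 49315 genes in a table of read counts from 12 mouse RNA-seq libraries. They were listed by symbol, and all 40 were found, each under a single Ensembl identifier. By role they comprise 10 genes of origin licensing, 6 of helicase activation, 5 of the sliding clamp and its loader, 9 of the polymerases and strand joining, 5 of deoxynucleotide synthesis, 3 of chromatin and methylation copying, and the 2 transcription factors E2f1 and E2f8. They were chosen with earlier results of these data known, so that their direction in the ILC2 coculture below is a description of a set already known to move, and not independent support for it.

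The libraries came from unmodified C57BL/6 mice and formed 4 groups of 3. The lymphoid cells were group 2 innate lymphoid cells (ILC2s), lymphocytes without antigen receptors that release type 2 cytokines. They were sorted from lung, expanded in IL-33, IL-25, IL-2 and IL-7, held for 48 h in IL-2 and IL-7 only, washed, and then cultured for 24 h without added cytokine, either alone or with eosinophils. Eosinophils, granulocytes of type 2 immunity, came from blood as the cells not retained by beads against B220 and CD90. They were held for 24 h in IL-33, washed, and cultured for 24 h without added cytokine, either alone or with ILC2s. All 4 groups had thus been exposed to IL-33 before the last culture, and cocultured cells were separated by flow cytometry before lysis. The sources used here give neither the ages of the mice nor the cell numbers, nor whether replicates were separate animals or cultures, so the p-values measure the spread between libraries, which may be technical.

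Library totals ran from 16769929 to 22928961 counts. Levels are given as CPM, counts relative to the library total scaled with edgeR's TMM factors over all 12 libraries, and as CPM per kb of exon where genes are compared with each other. The exon length is that of all annotated exons of a gene merged, so rankings and ratios between genes depend on the annotation. A change between groups in the ratio of the same pair of genes does not depend on it. A single count in a library was worth between 0.0349 and 0.0668 CPM. The labelled cell types matched their markers. Gata3, the ILC2 lineage factor, averaged 747 and 706 CPM in ILC2s alone and with eosinophils and 1.46 and 0.315 CPM in eosinophils alone and with ILC2s. Siglecf, an eosinophil surface lectin, averaged 0.228, 0.257, 1370.3 and 1373 CPM in the same order. Ccr3, the eotaxin receptor, averaged 0.995, 1.3, 1566 and 2102 CPM. Il1rl1, the IL-33 receptor, was present in both cell types, at 2486, 2609, 976 and 639 CPM.

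Before S phase, the origin recognition complex, Cdc6 and Cdt1 load the MCM helicase onto origins. Cdc45 and the GINS complex then activate the helicase, polymerase alpha-primase starts each strand, and polymerases delta and epsilon extend it on the PCNA clamp, which the RFC complex loads. Ribonucleotide reductase and thymidylate synthase make the deoxynucleotides, and many of the genes are transcribed at the G1/S boundary under E2F factors, so that their mRNAs are abundant in dividing lymphocytes and scarce in resting ones. Mature blood eosinophils are non-dividing cells.

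All 40 genes were higher in ILC2s cultured with eosinophils than in ILC2s cultured alone, from 1.89-fold for Gins4, a GINS subunit, to 47.2-fold for Uhrf1, which brings the maintenance methyltransferase to newly copied DNA. The median log2 fold change of the 40 was 2.55, against 0 over the 14438 genes tested. The rise passed 2-fold for 38 genes, 4-fold for 29, 8-fold for 15 and 16-fold for 11. The groups did not overlap for any of the 40, the lowest cocultured library lying above the highest library of cells cultured alone, as was so for 38.4% of all genes tested. All 40 passed an adjusted p of 0.05 (edgeR quasi-likelihood test, Benjamini-Hochberg over all genes tested), where 36.8% of all genes were called higher, 35.6% lower and 72.4% either way. With library totals in place of TMM scaling, the median of all genes moved to -0.15 and the smallest rise of the 40 was 0.76. The 38 called genes beyond 2-fold compare with 14.0% of all genes called higher by that much.

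Summed over the 40 genes, the level was 536, 538 and 544 CPM in the 3 libraries of ILC2s alone and 3504, 3223 and 3054 CPM in the 3 cocultured with eosinophils. The means were 539 ± 4.25 and 3260.1 ± 227 CPM (SD, n = 3), a ratio of 6.05. As a share of all counts, unscaled, the 40 genes took 0.0675% ± 0.000724 of the counts in ILC2s alone and 0.364% ± 0.0273 with eosinophils. In these bulk libraries, a larger fraction of cells expressing the genes and more RNA per cell cannot be told apart.

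**Figure D1:**
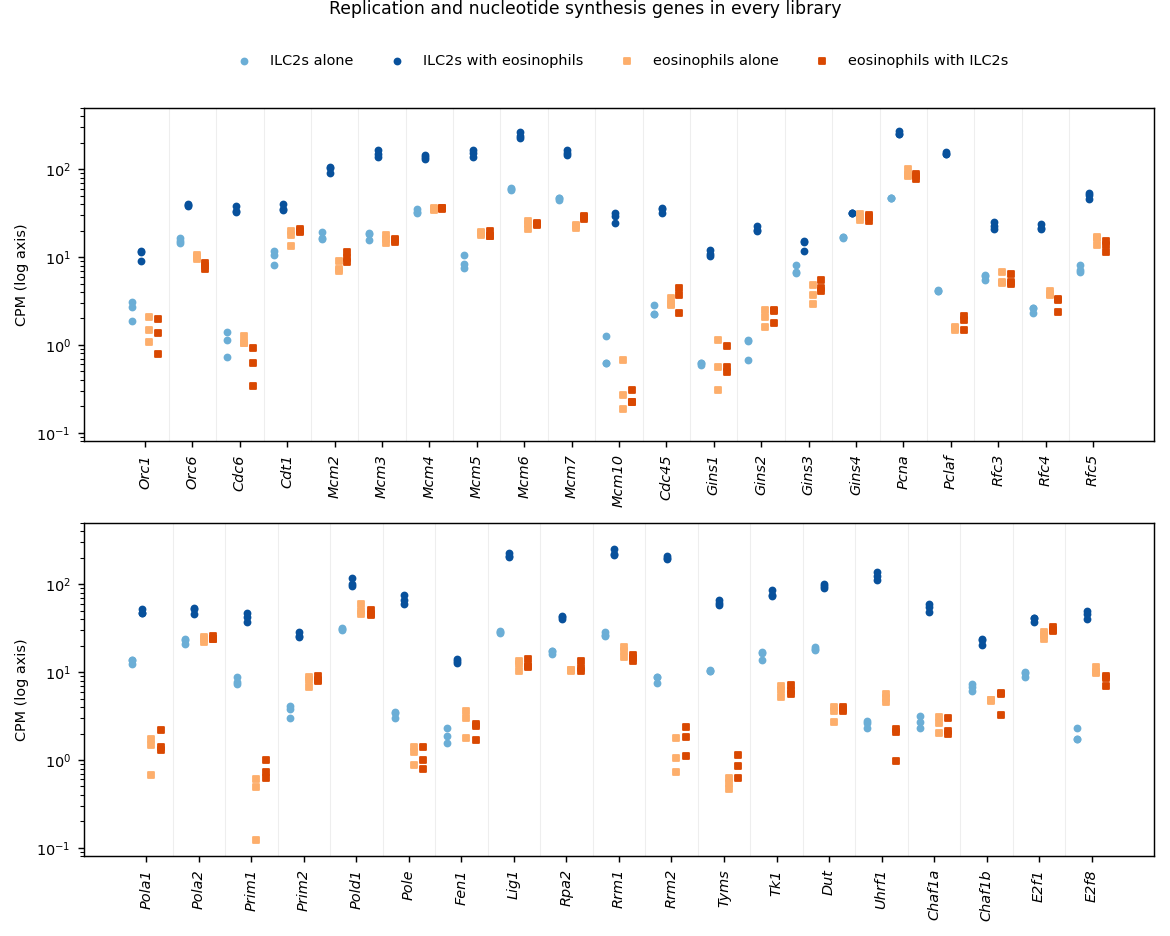
Level of each of the 40 genes in each of the 12 libraries (log axis, CPM), ordered by role, with 1 colour per group of 3 libraries. The points of ILC2s with eosinophils lie above those of ILC2s alone for all 40 genes, whereas the 2 eosinophil groups overlap for 32.

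A promoter sequence from RefSeq (250 bases before to 50 after an annotated start, GRCm38.p6, equivalent to mm10) was found for 34 of the 40 genes, the exceptions being Mcm4, Gins1, Gins2, Gins4, Prim2 and Pole. The letters TTTGGCGC, TTTGCCGC, TTTCGCGC and TTTCCCGC, which spell the classical E2F recognition sequence, were searched for on both strands, where matches may overlap. In the 250 bases before the start, 9 of the 34 genes (26.5%) held at least 1 match, against 1.86% of all 32851 promoters and 2.16% of the 27025 genes with a promoter. The 9 were Gins3, Mcm7, Pola1, Rfc3, Mcm6, Orc1, Mcm5, Cdc6 and Uhrf1. A gene counted where any of its promoters held a match. That of Uhrf1 precedes an annotated start inside the gene, and its promoter nearest the gene start held none in these 250 bases. The matches of Cdc6, Gins3, Mcm7 and Rfc3 also lie inside the gene as GENCODE M21 places it, and the stretch around that of Orc1 crosses the gene start. Printed here are the stretches around the matches of 5 of the 9 genes, which overlap no annotated exon. These genes were used since they span the range of the response from Pola1 to Uhrf1. The stretches run 5′ to 3′ on the strand of the gene, with 20 bases on either side and the matching letters in capitals. They lie at chr17:56304108-56304155 (plus strand), chr11:98907993-98908040 (plus strand), chr8:75109336-75109387 (plus strand), chr1:128359725-128359835 (minus strand) and chrX:93632266-93632313 (minus strand).
Uhrf1: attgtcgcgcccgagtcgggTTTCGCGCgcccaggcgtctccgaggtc
Cdc6: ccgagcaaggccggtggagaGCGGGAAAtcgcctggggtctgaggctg
Mcm5: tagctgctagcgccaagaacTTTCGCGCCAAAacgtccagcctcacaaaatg
Mcm6: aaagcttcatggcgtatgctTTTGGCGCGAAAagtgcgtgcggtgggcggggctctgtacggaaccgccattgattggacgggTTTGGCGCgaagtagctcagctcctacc
Pola1: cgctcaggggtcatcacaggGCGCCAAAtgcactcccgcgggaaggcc

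The capitals of Mcm5 and the first capitals of Mcm6 each hold 2 overlapping matches on opposite strands, and Mcm6 holds another match farther on. A match is a description of letters, not of a bound site. The median log2 fold change in cocultured ILC2s was 2.03 (n = 9, 0.96 to 5.56) with a match before the start and 2.56 (n = 25, 1.15 to 5.18) without. Over the whole 300 bases, 14 of the 34 genes (41.2%) held a match, against 2.26% of all promoters and 2.6% of all genes with a promoter. The medians were 2.04 with a match and 2.55 without. The letters of 2 other cell cycle promoter elements were searched in the 250 bases before the start on both strands. CCAAT was found in 61.8% of the 34 genes, 33.8% of all promoters and 37.5% of all genes with a promoter. The shares for TTTGAA were 14.7%, 16% and 18.3%.

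Among the licensing genes, all 10 rose in cocultured ILC2s, with a median log2 fold change of 2.05. Cdc6, the ATPase that recruits Cdt1 and the helicase to origins (chr11:98907801-98923940), had the largest rise. Its level was 1.39, 0.72 and 1.15 CPM in ILC2s alone and 38, 33.8 and 32.6 CPM with eosinophils, a log2 fold change of 4.99 ± 0.137 (SE, adjusted p = 5e-23). The cocultured libraries lay far above those of ILC2s alone. Cdt1, its partner in loading, went from 8.15, 11.6 and 10.5 to 39.8, 35.6 and 33.9 CPM (log2 fold change 1.84 ± 0.096, adjusted p = 2.2e-16), a smaller rise from a higher start. The origin recognition subunits Orc1 and Orc6 rose by 2.05 ± 0.162 and 1.33 ± 0.0734 on the log2 scale.

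The 6 subunits of the MCM helicase ring, which assemble in equal numbers, all rose but by different amounts. Mcm5 (chr8:75109569-75128439) rose most, from 10.5, 7.52 and 8.23 to 165, 151 and 139 CPM (log2 fold change 4.12 ± 0.0768, adjusted p = 5.6e-27). Mcm7 rose least, from 44.3, 46.6 and 47 to 163, 151 and 144 CPM (log2 fold change 1.72 ± 0.0486, adjusted p = 8.9e-23). For both genes the libraries within a group lay close together and the groups far apart. The log2 fold changes of the other 4 subunits were 3.07 for Mcm3, 2.54 for Mcm2, 2.05 for Mcm4 and 2.03 for Mcm6. Per kb of exon, the levels in ILC2s alone ran from 2.19 CPM for Mcm5 to 12.8 CPM for Mcm6, a ratio of 5.82. In cocultured ILC2s they ran from 14.5 CPM for Mcm2 to 52.4 CPM for Mcm6, a ratio of 3.62. Such ratios between genes depend on the merged exon lengths. Mcm5, lowest of the ring in ILC2s alone, stood at 38.1 CPM per kb beside 38.5 for Mcm4 and 39.7 for Mcm3 after coculture.

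The helicase activation genes differed widely among themselves. Mcm10, which stabilises the active helicase and recruits polymerase alpha, was barely detected in ILC2s alone, at 0.623, 0.63 and 1.26 CPM, and reached 31.8, 29.1 and 24.5 CPM with eosinophils (log2 fold change 5.01 ± 0.165, adjusted p = 3.9e-21). It rested on 63 counts over the 3 libraries of ILC2s alone. Cdc45, a subunit of the active helicase, went from 2.25, 2.84 and 2.27 to 36.5, 35.1 and 31.3 CPM (log2 fold change 3.80 ± 0.113). In both, no library of one group came near the other group.

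The 4 GINS subunits, which also form a complex in equal numbers, split into pairs. Gins2 went from 1.15, 0.675 and 1.12 to 22.3, 20.4 and 20 CPM (log2 fold change 4.39 ± 0.151), and Gins1 from 0.623, 0.585 and 0.628 to 12, 10.8 and 10.3 CPM (log2 fold change 4.15 ± 0.186). By contrast, Gins4 went from 17.1, 16.8 and 16.5 to 32, 32 and 31.7 CPM, and Gins3 from 8.1, 6.84 and 6.63 to 15, 15.3 and 11.7 CPM. These were the 2 smallest rises of the 40 genes, with log2 fold changes of 0.92 ± 0.0725 and 0.96 ± 0.12 (adjusted p = 2.9e-12 and 3.6e-08). Gins4, the smallest, still lay at percentile 84.6 of all genes tested. Per kb, Gins4 exceeded Gins2 by a ratio of 51.9 in ILC2s alone and 4.64 in cocultured ILC2s. The highest GINS subunit exceeded the lowest by 48.2 in eosinophils alone and 46.9 in eosinophils with ILC2s, where Gins4 was again highest and Gins1 lowest. Those 2 ratios are imprecise, since Gins1 had 31 counts in all in eosinophils alone and 35 with ILC2s. Gins2 shares 2758 of its 4097 exon bases with Gse1 on the opposite strand, and reads of the 2 genes cannot be told apart there, because the strand setting of the counting was not given in the sources used here.

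**Figure D2:**
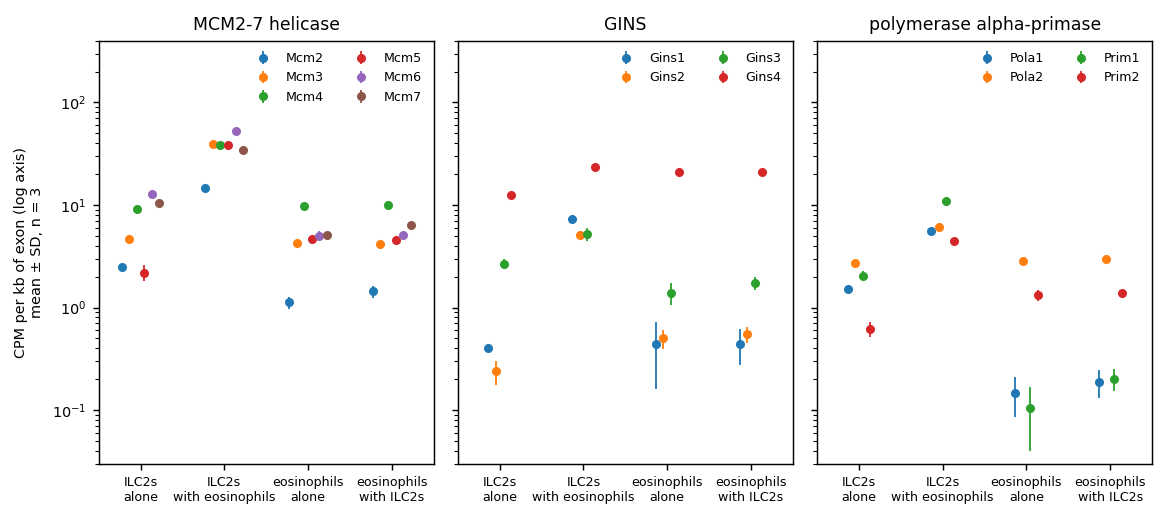
Mean CPM per kb of exon (log axis, bars ± SD, n = 3 libraries) of the subunits of 3 complexes in the 4 groups. In the MCM ring, GINS and polymerase alpha-primase the points lie closest together in ILC2s with eosinophils, and in GINS the highest subunit exceeds the lowest there by a ratio of 4.64, against 51.9 in ILC2s alone.

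In the clamp group, Pcna, the sliding clamp that tethers polymerases, was the most abundant of the 40 genes per kb in cocultured ILC2s. It went from 47.3, 46.4 and 46.4 to 273, 248 and 253 CPM (log2 fold change 2.46 ± 0.0444, adjusted p = 2.9e-27). Processed pseudogenes of Pcna and of Tyms are annotated, and the counting of multi-mapped reads was not given in the sources used here, so both values are uncertain to that extent. Pclaf, a small PCNA-binding protein, had the second largest rise of the 40 genes. Its level was 4.27, 4.1 and 4.12 CPM in ILC2s alone and 158, 148 and 149 CPM with eosinophils (log2 fold change 5.18 ± 0.0655, adjusted p = 7.5e-31). The replicates of each group lay within a narrow band. Of the listed clamp loader subunits, which stood at nearly the same level per kb in ILC2s alone (1.57 CPM for Rfc5, 1.65 for Rfc3 and 1.65 for Rfc4), Rfc4 rose by 3.10 ± 0.12, Rfc5 by 2.77 ± 0.0855 and Rfc3 by 1.93 ± 0.103 on the log2 scale. After coculture their levels were 14.3, 10.7 and 6.29 CPM per kb in that order. These 3 subunits moved apart, the highest exceeding the lowest by a ratio of 1.05 in ILC2s alone and 2.28 after coculture, unlike the MCM and GINS subunits.

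All 9 polymerase and strand joining genes rose, with a median log2 fold change of 2.40. Pole, the catalytic subunit of the leading strand polymerase epsilon, had the largest rise of the 9, from 3.55, 3.38 and 2.97 to 75.8, 65.5 and 59.2 CPM (log2 fold change 4.34 ± 0.102, adjusted p = 1.1e-24). Pold1, the catalytic subunit of polymerase delta on the lagging strand, rose from 30.6, 30.5 and 31.7 to 117, 101 and 96 CPM (log2 fold change 1.75 ± 0.0604). Neither gene had an overlap between its groups. The primase subunits Prim1 and Prim2 rose by 2.40 ± 0.0917 and 2.84 ± 0.112, more than the subunits of polymerase alpha that they work with, Pola1 at 1.88 ± 0.0747 and Pola2 at 1.15 ± 0.0695; the differences between genes were not tested. Lig1, the ligase that seals Okazaki fragments, rose from 28.3, 29.3 and 27.7 to 228, 211 and 204 CPM (log2 fold change 2.90 ± 0.0496, adjusted p = 7.2e-28). Fen1, the nuclease that trims their flaps, rose by 2.80 ± 0.149, and Rpa2, a subunit of the single-strand binding protein, by 1.31 ± 0.0711. Fen1 shares 1909 exon bases with Gm10143 on the opposite strand.

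The 5 deoxynucleotide synthesis genes rose by a median log2 fold change of 2.56, and their summed level went from 79.4, 79.5 and 80.3 to 715, 645 and 629 CPM. Rrm2 (chr12:24708241-24714146), the small subunit of ribonucleotide reductase that is made in S phase and degraded afterwards, rose from 8.77, 7.47 and 8.76 to 211, 198 and 191 CPM (log2 fold change 4.57 ± 0.0607, adjusted p = 2.1e-30). The large subunit Rrm1 rose from 28.3, 25.9 and 26.2 to 252, 222 and 213 CPM (log2 fold change 3.09 ± 0.0567, adjusted p = 4.1e-27). Per kb, the ratio of Rrm2 to Rrm1 was 1.23 ± 0.0897 in ILC2s alone and 3.48 ± 0.13 with eosinophils (SD, n = 3). Tyms, which makes thymidylate, rose by 2.56 ± 0.0717, Dut, which removes dUTP, by 2.35 ± 0.059, and Tk1, the cytosolic thymidine kinase, by 2.28 ± 0.0737. The latter 3 genes therefore kept close to each other, between 2.28 and 2.56 on the log2 scale, below both reductase subunits.

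The 3 chromatin and methylation genes had the highest median log2 fold change of any role, 4.30. Uhrf1 (chr17:56303321-56323486) rose from 2.64, 2.34 and 2.79 CPM to 136, 125 and 111 CPM, the largest change of the 40 genes (log2 fold change 5.56 ± 0.091, adjusted p = 3.1e-28). The lowest cocultured library, 111 CPM, stood far above the highest library of ILC2s alone, 2.79 CPM. Chaf1a and Chaf1b are the 2 larger subunits of the chaperone CAF-1, which deposits histones behind the fork, and they moved apart. Chaf1a went from 2.3, 3.2 and 2.69 to 59.3, 54.7 and 48.2 CPM (log2 fold change 4.30 ± 0.107), and Chaf1b from 6.09, 6.75 and 7.26 to 23.5, 23 and 20.5 CPM (log2 fold change 1.72 ± 0.101). Per kb, the ratio of Chaf1a to Chaf1b was 0.215 ± 0.0304 in ILC2s alone and 1.28 ± 0.0495 with eosinophils. Chaf1a shares 4648 exon bases with Ubxn6 on the opposite strand, out of an exon length of 8854 bases, so that reads of the 2 genes cannot be told apart there.

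Both E2F genes rose. E2f1, an activator of G1/S transcription, went from 8.82, 10 and 9.77 to 41.4, 41.2 and 37 CPM (log2 fold change 2.05 ± 0.0823, adjusted p = 4.2e-19). E2f8, an atypical family member that represses the same promoters later in S phase, went from 1.73, 2.3 and 1.74 to 49, 45.5 and 40.7 CPM (log2 fold change 4.55 ± 0.115, adjusted p = 6.4e-24). Per kb, the ratio of E2f8 to E2f1 was 0.116 ± 0.0148 in ILC2s alone and 0.654 ± 0.0268 with eosinophils, while it was 0.23 ± 0.0379 in eosinophils alone and 0.153 ± 0.0149 with ILC2s. The pairs of genes set against each other here were picked after their values were seen, and their ratios are descriptions with no test. In all, 13 of the 40 genes share exon bases with an opposite-strand gene.

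Genes that were lower in ILC2s alone had the larger rises. Across the 40 genes, which are not independent, Spearman's rho between the level per kb in ILC2s alone and the log2 fold change was -0.65, and the starting level enters both quantities. In ILC2s alone 22 genes averaged under 10 CPM and 3 under 1 CPM, whereas with eosinophils none of the 40 averaged under 10 CPM. The spread among cocultured libraries also ran the same way across genes. Replicate 1 of the ILC2s with eosinophils was the highest of its group for 36 of the 40 genes, and replicate 3 the lowest for 37, while no library of ILC2s alone was highest for more than 14. With 1 library left out at a time, all 40 genes were called higher each time and their median log2 fold change was between 2.5 and 2.6.

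**Figure D3:**
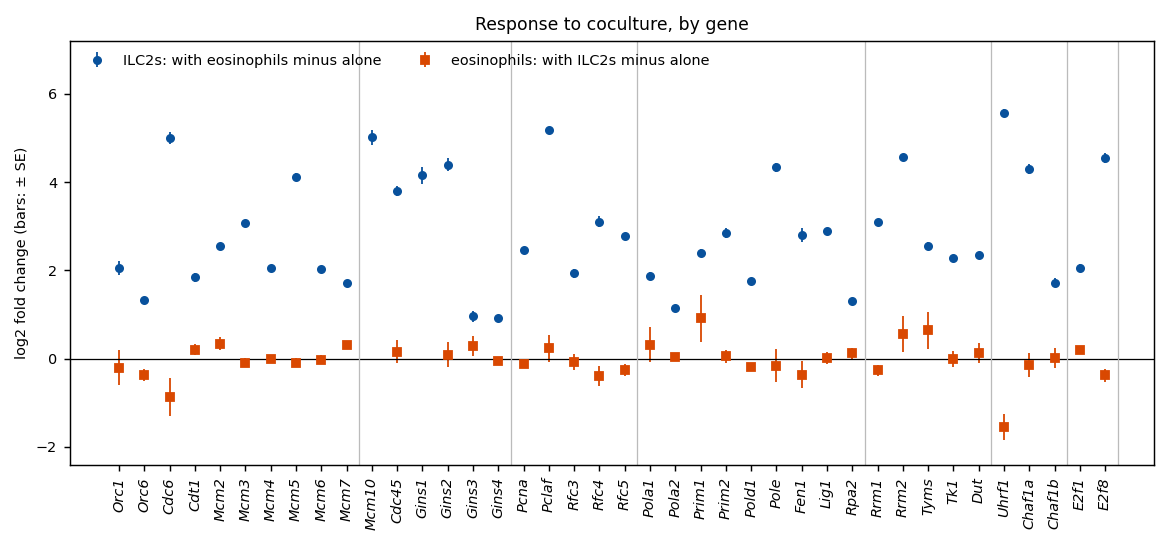
Log2 fold change ± SE of each gene in coculture against culture alone, for ILC2s and for eosinophils, by edgeR on 3 against 3 libraries. The ILC2 points run from 0.92 to 5.56 and the eosinophil points from -1.55 to 0.91, with no eosinophil point for Mcm10 and Gins1, whose counts were too low to be tested there.

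Markers of other cells in the ILC2 libraries were as follows. The summed level of 20 eosinophil markers was 5.09 to 5.85 CPM in ILC2s alone and 5.81 to 7.01 CPM with eosinophils, against 18354 to 21076 CPM in eosinophils, and 1 of the 6 tested in ILC2s, Pirb, was called higher. Of 10 granulocyte precursor markers, 2 passed the low-count filter, Mpo and Ctsg. Mpo was at 0, 0.09 and 0.0349 CPM in ILC2s alone and at 4.12, 1.2 and 1.93 CPM with eosinophils. Ctsg was at 0.0479, 0 and 0 CPM alone and at 0.935, 0.443 and 0.574 CPM with eosinophils. Both passed only through the cocultured libraries, so that they could only be called higher, as they were. With no low-count filter 5 of the 10 were called higher, and with at least 1 CPM in 3 libraries 1 was. The sum over the 10 was 0.144, 0.225 and 0.0349 CPM alone and 7.44, 2.62 and 3.81 CPM with eosinophils. Low counts of Elane, Prtn3 and Ms4a3 were also present in the cocultured libraries, while Fcnb and Chil3 were at 0 there. The summed basophil and mast cell markers were lower with eosinophils, 50.9 to 62.4 CPM against 130.3 to 142 CPM, most of it Kit. The summed B cell, NK cell and monocyte markers were also lower, 430.4 to 521 CPM against 805 to 829 CPM, most of it Ccr2, although 3 of the 5 tested rose and 2 fell, with a median log2 fold change of 0.52. The markers named here other than Gata3, Siglecf, Ccr3 and Il1rl1 were picked after their values were seen. The part of these cells in the rise of the 40 genes was not tested.

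In eosinophils, coculture with ILC2s left most of the 40 genes without a called change. Of the 38 tested, 1 rose, 1 fell and 36 did not pass the threshold, where 11.4% of all 13109 genes were called higher, 13.5% lower and 24.9% either way. None of the 38 rose beyond 2-fold, as did 1.15% of all genes. The median log2 fold change was -0.01, 25 of the 38 lay within 1.2-fold, and 6 had an unadjusted p under 0.05. The median SE was 0.162 on the log2 scale, compared with 0.0795 in ILC2s, so that changes were measured less precisely in eosinophils. Libraries of the 2 eosinophil groups overlapped for 32 of the 40 genes and did not for 8, where 39.9% of all genes tested did not overlap in either direction. The summed level of the 40 was 512, 478 and 501 CPM in eosinophils alone and 492, 480.4 and 503 CPM with ILC2s, a ratio of means of 0.990.

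Uhrf1, which rose most in ILC2s, was the member that fell in eosinophils. Its level was 4.54, 5.66 and 5.01 CPM in eosinophils alone and 2.1, 2.25 and 0.966 CPM with ILC2s, and the groups did not overlap (log2 fold change -1.55 ± 0.286, adjusted p = 0.0012). These are low levels, 241 and 91 counts in all over 3 libraries each, and the fall stayed past the threshold with any 1 of the 6 libraries left out. Mcm7 was the member that rose, from 22.4, 23.3 and 21.3 to 29.2, 28.4 and 26.8 CPM (log2 fold change 0.30 ± 0.0881, adjusted p = 0.023). That call was lost, with adjusted p between 0.065 and 0.084, when replicate 1 or 3 of the eosinophils alone or replicate 1 or 2 of those with ILC2s was left out. Among the other genes, E2f1 and Prim1 were higher in all 3 cocultured eosinophil libraries than in any cultured alone, and Orc6, Cdc6, Rfc4 and E2f8 lower, none of them past the threshold. Their log2 fold changes were 0.19 ± 0.089, 0.91 ± 0.527, -0.37 ± 0.135, -0.87 ± 0.428, -0.40 ± 0.225 and -0.38 ± 0.144 in that order, with adjusted p between 0.06 for Orc6 and 0.25 for Prim1.

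Markers of other cells also moved in these eosinophil libraries. The summed basophil and mast cell markers were 262, 231 and 248 CPM alone and 128, 122 and 115 CPM with ILC2s, and 4 of the 6 tested fell, Kit, Hdc, Fcer1a and Gata2. The summed ILC2 and lymphoid markers, mostly Il1rl1, were 1034 to 1084 CPM alone and 720.4 to 748 CPM with ILC2s, with 1 of the 9 tested higher and 5 lower. Gata3 stood at 2.27, 0.985 and 1.11 CPM alone and 0.494, 0.225 and 0.227 CPM with ILC2s. The 10 granulocyte precursor markers summed to 23.1, 12.9 and 13.7 CPM alone and 10.4, 10.8 and 12.7 CPM with ILC2s, and 1 of the 3 tested fell. The B cell, NK cell and monocyte markers summed to 491 to 556 CPM alone and 521 to 552 CPM with ILC2s, and 1 of the 5 tested fell. The part of these cells in the fall of Uhrf1 was not tested.

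**Figure D4:**
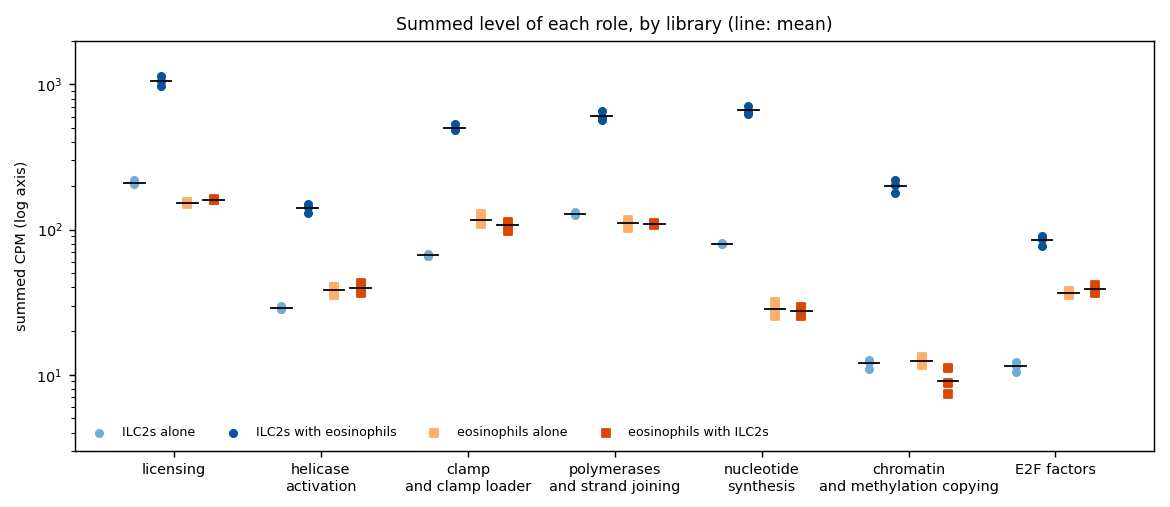
Summed CPM of the genes of each role in the 12 libraries (log axis, points are libraries, bars the mean of 3). In ILC2s the cocultured libraries lie above those cultured alone for all 7 roles, while the means of the 2 eosinophil groups differ by ratios of 0.732 to 1.06.

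Compared with each other when cultured alone, ILC2s and eosinophils carried summed levels of the 40 genes of 539 ± 4.25 and 497 ± 17.4 CPM, a ratio of 1.09. As unscaled shares of all counts the 40 genes took 0.0675% ± 0.000724 and 0.0416% ± 0.00137, so that the closeness of the sums depends on TMM scaling. Of the 40, 18 were higher in ILC2s, 12 were higher in eosinophils and 10 did not pass the threshold. Among all 14525 genes tested, 40.8% were called higher in ILC2s, 39.9% lower and 80.7% either way. Beyond 2-fold, 12 of the 40 genes were called higher in ILC2s, against 25.4% of all genes. This comparison shares the libraries of ILC2s alone with the ILC2 coculture and those of eosinophils alone with the eosinophil coculture. It also depends on scaling. With library totals in place of TMM, the median of all genes moved from 0.03 to 0.60. The split of the 40 genes became 24 higher and 6 lower in ILC2s. Mcm3, Mcm4, Mcm10, Rfc3, Pola2 and Chaf1a turned from no call to higher.

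The 5 deoxynucleotide synthesis genes were all higher in ILC2s. They stayed so with library totals, which is no added support, since that scaling moved the median of all genes further in the same direction. Tyms was at 10.2, 10.3 and 10.6 CPM in ILC2s alone and 0.467, 0.554 and 0.619 CPM in eosinophils alone (log2 fold change 4.23 ± 0.215, adjusted p = 8.2e-11). Rrm2 differed by 2.82 ± 0.25, Dut by 2.44 ± 0.143, Tk1 by 1.37 ± 0.142 and Rrm1 by 0.65 ± 0.104 on the log2 scale. The start of strand synthesis was likewise uneven. Prim1 was at 8.82, 7.29 and 7.67 CPM in ILC2s and 0.601, 0.492 and 0.124 CPM in eosinophils (log2 fold change 4.29 ± 0.312), and Pola1 at 13.6, 13.8 and 12.2 and 1.47, 0.677 and 1.73 CPM (log2 fold change 3.36 ± 0.22). Their partners did not follow: Prim2 was lower in ILC2s, at 3.02, 4.14 and 3.84 against 8.75, 6.77 and 8.04 CPM (log2 fold change -1.08 ± 0.181), and Pola2 was not called (-0.04 ± 0.0949, adjusted p = 0.71). Within polymerase alpha-primase, the highest subunit per kb exceeded the lowest by a ratio of 26.9 in eosinophils alone and 4.41 in ILC2s alone. The former is imprecise, since the lowest subunit there, Prim1, had 19 counts in all.

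Both E2F genes were higher in eosinophils, also with library totals. E2f8 was at 11.3, 10.1 and 9.65 CPM in eosinophils alone and 1.73, 2.3 and 1.74 CPM in ILC2s alone (log2 fold change -2.42 ± 0.184, ILC2 relative to eosinophil, adjusted p = 1e-08), and E2f1 at 24.1, 26.5 and 28.4 and 8.82, 10 and 9.77 CPM (-1.45 ± 0.105). Mcm5, Pcna, Rfc5 and Prim2 were the other 4 genes lower in ILC2s under both scalings, with log2 fold changes of -1.10 ± 0.127, -0.93 ± 0.0726, -1.09 ± 0.13 and -1.08 ± 0.181. In coculture the order was different, since for each of the 40 genes the lowest library of ILC2s with eosinophils lay above the highest library of eosinophils with ILC2s, as was so for 44.3% of the 14634 genes that passed the filter in these 2 groups. The cocultured eosinophils held 15.1% of the summed level of the cocultured ILC2s, and 45.7% for the E2F genes alone.

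The responses of the 2 cell types to coculture were compared directly, as the log2 change in ILC2s minus that in eosinophils, in 1 fit of the 12 libraries. All 40 genes had the larger response in ILC2s, with a median difference of 2.42, and 38 of them by more than 2-fold. Among all 15745 genes tested, 26.8% were called larger in ILC2s, 24.8% smaller, 51.5% either way and 13.6% larger by more than 2-fold. The largest differences were 7.09 ± 0.252 for Uhrf1, 5.84 ± 0.42 for Cdc6 and 5.60 ± 0.727 for Mcm10. The smallest were 0.65 ± 0.25 for Gins3 (adjusted p = 0.034), 0.95 ± 0.117 for Gins4 (adjusted p = 2.7e-07) and 1.09 ± 0.118 for Pola2 (adjusted p = 3.9e-08). The call of Gins3 was lost with library totals (0.46, adjusted p = 0.13) and with upper quartile scaling (0.58, adjusted p = 0.057). It was also lost, at differences of 0.45 to 0.62, without replicate 2 or 3 of ILC2s alone, replicate 1 or 2 of ILC2s with eosinophils, replicate 1 of eosinophils alone, or replicate 1 or 3 of eosinophils with ILC2s. Prim1, at 1.47 ± 0.493 (adjusted p = 0.015), lost its call without replicate 1 (1.09, adjusted p = 0.15) or replicate 2 (1.28, adjusted p = 0.081) of eosinophils alone.

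Genes of the same pathways that were not among the 40, in lists drawn up with earlier results of these data known, moved in both directions in cocultured ILC2s. The counts of each list are to be read beside the shares of all genes tested. These were 36.8% called higher and 35.6% lower in ILC2s, and 11.4% and 13.5% in eosinophils. Of 37 other replication fork and origin factors, 30 rose, 3 fell and 4 did not pass, with a median log2 fold change of 1.24. By smallest p, Clspn, which carries the checkpoint signal at the fork, rose from 3.31, 2.52 and 2.83 to 78.4, 75.9 and 68 CPM (log2 fold change 4.68 ± 0.0917), Timeless, of the fork protection complex, by 3.87 ± 0.12, and Rpa1, the large subunit of the single-strand binding protein, by 1.13 ± 0.0405. Those that fell were Orc4, an origin recognition subunit, at -0.55 ± 0.0535, Pold4, the smallest subunit of polymerase delta, at -0.25 ± 0.0568, and Tonsl, which acts at stalled forks, at -0.16 ± 0.0394. Unlike Orc1 and Orc6, Orc4 thus fell, from 64.3, 72.2 and 71.7 to 47.9, 48 and 47.3 CPM. In eosinophils 2 of the 37 rose and 2 fell. Rpa1 was 1 of those that rose, and its call was lost, leaving 1 rise, without replicate 1 or 2 of the eosinophils alone or any 1 replicate of those with ILC2s (adjusted p between 0.056 and 0.17), while 1 to 3 genes fell.

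Among 15 genes of E2F factors, their DP partners, pocket proteins and the MuvB core, 9 rose and 3 fell, with a median of 0.41. Tfdp1, the main DP partner, rose by 1.71 ± 0.0467, the activator E2f2 by 2.62 ± 0.0799, and E2f7, the atypical partner of E2f8, by 4.15 ± 0.158. The falls of Tfdp2 (-0.31 ± 0.0636), Rb1 (-0.14 ± 0.0385) and Rbl2 (-0.10 ± 0.0378), the latter 2 encoding pocket proteins that restrain E2F factors, were small. The calls of Rb1 and Rbl2 were lost in the fit of all 12 libraries, and that of Rbl2 also with no low-count filter and without replicate 2 or 3 of either ILC2 group. In eosinophils E2f2 fell with coculture, from 65.8, 59.2 and 62.2 to 24.6, 24.6 and 21.9 CPM (log2 fold change -1.42 ± 0.0796, adjusted p = 1.7e-08), and Tfdp1 rose by 0.21 ± 0.0555, a call lost without replicate 3 of the eosinophils with ILC2s. They were the 2 called genes of 14 tested there. Without replicate 2 of the eosinophils alone 3 rose, and without replicate 3 of the same group 2 fell.

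Enzymes that feed nucleotide synthesis mostly rose in cocultured ILC2s. Of 13 purine synthesis genes 11 rose and 2 fell (median 0.66), of 5 pyrimidine synthesis genes 3 rose and none fell (median 1.33), and of 9 folate and 1-carbon genes tested 7 rose and 2 fell (median 1.11). Impdh2, the rate-limiting enzyme of guanine nucleotide synthesis, rose from 25.2, 23.9 and 24.8 to 133, 125 and 118 CPM (log2 fold change 2.34 ± 0.054). The late purine pathway enzymes Atic and Paics rose by 1.22 ± 0.0455 and 0.90 ± 0.0412. In pyrimidine synthesis, Cad, which catalyses the first steps, rose by 1.33 ± 0.066, Umps, which forms UMP, by 1.46 ± 0.0828, and Ctps, which forms CTP, by 2.08 ± 0.1. The mitochondrial 1-carbon enzymes Mthfd2 and Mthfd1l rose by 2.68 ± 0.0662 and 2.26 ± 0.0561. Adssl1 (-0.96 ± 0.127), Prps2 (-0.17 ± 0.0482) and Mthfd2l (-0.78 ± 0.108) were among the genes that fell, and the call of Prps2 was lost in the fit of all 12 libraries (adjusted p = 0.1). Without replicate 3 of the ILC2s with eosinophils, 1 pyrimidine gene was also called lower.

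In eosinophils 5 of the 13 purine genes rose and 1 fell, with 3 rises without replicate 2 of the eosinophils alone and 2 without replicate 3 of those with ILC2s. There 0 of the 5 pyrimidine genes were called, and of 10 folate genes 0 rose and 2 fell. Among the latter was Mthfd1l, which rose in ILC2s and fell in eosinophils, from 66.8, 60.1 and 56.7 to 10.3, 10.5 and 10.5 CPM (log2 fold change -2.58 ± 0.0926, adjusted p = 2.3e-10), a difference of responses of 4.82 ± 0.111.

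Genes that recycle or break down deoxynucleotides divided. Of 18 salvage, kinase and breakdown genes tested in ILC2s, 12 rose, 5 fell and 1 did not pass. The kinase genes Nme1 and Nme2, neighbours of similar sequence whose reads may be shared, rose by 3.14 ± 0.0671 and 1.73 ± 0.0589, and Dck, the deoxycytidine kinase, by 2.21 ± 0.0758. Samhd1, which breaks down deoxynucleotides and is known for restricting DNA synthesis in resting cells, fell from 1169, 1153 and 1159 to 431, 459 and 487 CPM (log2 fold change -1.35 ± 0.0406, adjusted p = 4.6e-22). The mitochondrial kinases Tk2, Dguok and Cmpk2 fell, with log2 fold changes of -1.23 ± 0.0476, -0.64 ± 0.0634 and -0.73 ± 0.093, as did Rrm2b, the reductase subunit used outside S phase, at -0.61 ± 0.0674. Rrm2b went from 47.5, 46.8 and 47.7 to 27.7, 30.9 and 34.8 CPM while Rrm2 rose, and Tk2 fell while Tk1 rose. In eosinophils 2 of the 17 tested rose and 4 fell, Tk2 and Cmpk2 among them (-0.44 ± 0.0636 and -1.40 ± 0.154), whereas Samhd1, at 2376 CPM alone and 2203 CPM with ILC2s, was not called (-0.14 ± 0.0509, adjusted p = 0.065). Without replicate 3 of the eosinophils with ILC2s, 1 of the 17 rose and 5 fell.

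Of 13 genes of histone supply and chromatin copying, 11 rose and 1 fell in cocultured ILC2s, with a median of 1.10. Asf1b, a histone chaperone of dividing cells that hands histones to CAF-1, rose by 4.56 ± 0.0935, Dnmt1, the maintenance methyltransferase that Uhrf1 recruits, by 1.45 ± 0.0463, and Rbbp7, a histone-binding protein related to the small subunit of CAF-1, by 1.32 ± 0.0428. Dnmt1 also rose in eosinophils, from 89.9, 100.3 and 97.7 to 132, 141 and 133 CPM (0.47 ± 0.0646, adjusted p = 0.00011), where Uhrf1 fell, and it was 1 of 4 called higher of 12 tested there, with 1 lower. The rises were 2 without replicate 2 of the eosinophils alone or replicate 1 or 3 of those with ILC2s, and 0 genes fell without either of the latter 2 libraries. Mcm3ap, which binds Mcm3, fell in ILC2s, at -0.24 ± 0.0441.

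Of 12 replication checkpoint genes, 5 rose, 3 fell and 4 did not pass in cocultured ILC2s, with a median of 0.10. These counts stand near the shares of all genes tested, 36.8% called higher and 35.6% lower. Among the large rises were those of Exo1, a nuclease (5.26 ± 0.18), and Chek1, the effector kinase (4.11 ± 0.153). Chek1 went from 1.01, 1.26 and 0.802 to 18, 17.1 and 17.4 CPM. The sensor genes Atr (-0.29 ± 0.0559), Atrip (-1.25 ± 0.298) and Rad1 (-0.24 ± 0.094) fell, the last with a call that was lost with no low-count filter, in the fit of all 12 libraries, and without replicate 2 of the ILC2s alone or replicate 1 or 2 of those with eosinophils (adjusted p between 0.057 and 0.14). In eosinophils 1 of 9 tested rose and 0 fell, and the count of rises was 0 without replicate 1 or 3 of the eosinophils alone or any 1 replicate of those with ILC2s.

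**Figure D5:**
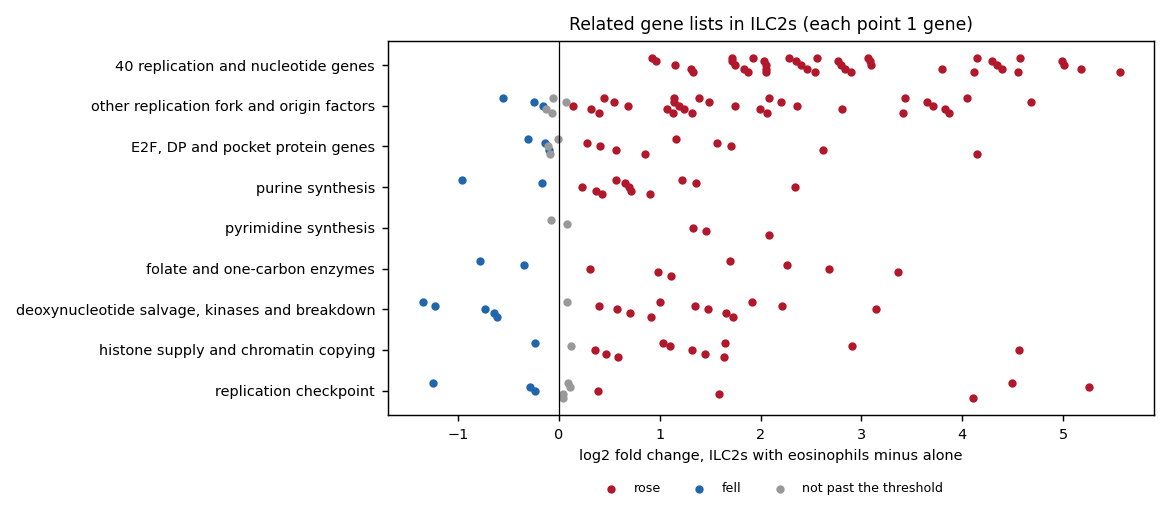
Log2 fold change in ILC2s cultured with eosinophils against alone for the 40 genes and for 8 lists of other genes of the same pathways; each point is 1 gene, coloured by whether it rose, fell or did not pass the threshold. The 40 genes have a median of 2.55 and none below 0, whereas the medians of the other lists lie between 0.10 and 1.33 and each of them holds genes below 0.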

How the data were processed

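RNA-seq was run on 12 libraries in 4 groups of 3, and groups and replicate numbers were taken from the submitters' labels. The deposited values are whole-number read counts per gene as the authors made them, without normalization, with RNA from Trizol and libraries from the NEBNext Ultra II kit per the labels' protocols. The submitters' processing notes list build mm10, STAR 2.5.2b, Subread 1.5.2, featureCounts, Trimmomatic 0.36 and bcl2fastq 2.17. The strand setting, the annotation release and how multi-mapped reads were counted were not given in the sources used here. Symbols, positions and exon lengths came from GENCODE M21 on the same build, which matched 48970 of 49315 identifiers.

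Each comparison was fitted across all genes in edgeR 4.0.16 (R 4.3.3) after filterByExpr, with TMM factors, no covariate and the quasi-likelihood test, and p-values were adjusted over all genes tested (Benjamini-Hochberg, called at 0.05). Coculture and cell type comparisons used their 6 libraries, and the difference of responses used all 12. The SE is the size of the log2 fold change divided by the square root of F. Groups do not overlap where every library of the one lies above every library of the other. The common biological coefficient of variation came to 4.71% for the ILC2 fit and to 7.92% for the eosinophil fit. The fits were tested on simulated data in which 200 genes were changed by 1.5-, 2- or 4-fold, as many up as down. Far more genes were called in the real data, so the simulation does not measure errors that scaling may cause there. In the simulation 4.85% of calls were false in the ILC2 fit and 8.94% in the eosinophil fit. The shares were 5.33% between cell types and 9.42% in the difference of responses. Of changes of 1.5-fold, 66.2%, 65.7%, 64.6% and 49.2% were recovered in that order. No 2 replicates agreed within sampling noise.

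The 40 genes and the other lists (200 genes in 13 lists, 199 found) were chosen with earlier results of these data known. Named genes are the 40, up to 3 of each other list by smallest p in the ILC2 coculture, every gene of a list called against that list's majority there, the 3 largest and smallest differences of responses, and 6 marker checks, of which Il7r fell in ILC2s from 1394 to 239 CPM and Epx averaged 11.9 and 15.3 CPM in the eosinophil groups. Some genes that this rule names are not reported here. Alternatives were DESeq2 1.42.0, library totals, upper quartile scaling, 2 other filters, a replicate block, 1 fit of all 12 libraries, and each library left out.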

Additional observations from a re-analysis of the deposited data

Results flagged for a closer look

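The response to coculture differed between the cell types, by a test of the difference itself, for 40 of the 40 genes, all larger in ILC2s. The differences (log2, edgeR) were largest for Uhrf1 at 7.09, Cdc6 at 5.84 and Mcm10 at 5.60, and smallest for Pola2 at 1.09, Gins4 at 0.95 and Gins3 at 0.65. For Uhrf1 the 2 cell types moved in opposite directions, each past the threshold, while Cdc6 was not called in eosinophils and Mcm10 was too low to be tested there. The eosinophil levels behind Cdc6 and Mcm10 were 1.12 ± 0.127 and 0.377 ± 0.266 CPM alone (SD, n = 3), so their differences rest mainly on the ILC2 libraries.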

How the results depend on the processing

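In cocultured ILC2s, all 520 values of the 40 genes under 13 alternatives kept their direction and their side of the threshold. In eosinophils 479 of 491 did, 8 gained a call and 4 (all Mcm7) lost it. The members called higher and lower there were 2 and 1 with library totals, 2 and 3 in the fit of all 12 libraries, and 0 to 1 and 1 to 3 with 1 library left out. For ILC2s alone against eosinophils alone, 488 of 518 values stayed; library totals left 6 genes lower in place of 12 and turned Mcm4 from -0.08 to 0.49 and Pola2 from -0.04 to 0.53. In the difference of responses 709 of 720 stayed, the rest being Gins3 and Prim1, with 38 to 40 genes called as libraries were left out, and the median of all genes moved to -0.18 with library totals. Among the other genes named, 590 of 611 values stayed in the ILC2 coculture and 551 of 583 in the eosinophil coculture, and Il1rl1 turned from 0.06 to -0.10 with library totals. Of the 37 other fork and origin factors in ILC2s, 28 rose and 6 fell with library totals and 29 and 5 with upper quartile scaling. In eosinophils 8 of the 13 purine genes rose in the fit of all 12 libraries, and 4 of the 17 salvage genes rose with library totals, in that fit and with the replicate block. The single rise among the checkpoint genes there was lost with DESeq2 and with no low-count filter. Causes of these changes were not tested.

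Same-numbered libraries showed no pairing in ILC2s or between cell types, and in eosinophils the values did not settle it. Whether same-numbered cocultured libraries of both cell types came from the same cultures was not given in the sources used here. The difference of responses treated them as independent. Correlations of same-numbered deviations were -0.01, 0.03 and -0.02 in ILC2s and -0.10, 0.08 and 0.02 between the cell types cultured alone. Between the cocultured cell types they were -0.01, 0.04 and 0.06. In eosinophils they were 0.04, 0.37 and 0.11, against -0.34 to 0.24 for different numbers. There the replicate block raised the calls over all genes from 1493 higher and 1771 lower to 2029 and 2139. With the replicate number as a block, the members called higher and lower were 40 and 0 in ILC2s, 1 and 3 in eosinophils (Orc6 and E2f8 added) and 18 and 12 between cell types, and 40 had the larger response in ILC2s. In eosinophils alone 4 of the 40 genes averaged under 1 CPM, where 3 counts equalled 0.185 to 0.200 CPM, so depth limits what could be seen for them.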
